A study of Homo sapiens with 12 samples.

Results

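The Fanconi anemia pathway repairs crosslinks between the strands of DNA and protects stalled replication forks. Its core complex is a ubiquitin ligase of several subunits, in which FANCL is the catalytic subunit and FANCM holds the complex on DNA. The core complex attaches ubiquitin to the paired proteins FANCD2 and FANCI, which then close around DNA and bring in nucleases and recombination factors. The transcripts of 10 of these genes were followed here, taken by symbol as the rows FANCA, FANCB, FANCC, FANCE, FANCF, FANCG, FANCL and FANCM (core complex and its anchor) and FANCD2 and FANCI (the substrate pair) of a table of 25365 gene names. All 10 were found, and all 10 averaged 1 FPKM or more across the libraries, the level required for testing.

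The table holds FPKM values, that is, fragments scaled to transcript length and to mapped reads, from the RNA of A549 cells, an epithelial line from a human lung adenocarcinoma. Wild-type A549 cells and cells labelled PARP3-/- received vehicle (DMSO) or 1 µM pyridostatin, a small molecule that stabilizes G quadruplexes (G4) in DNA, for 24 h, and each of the 4 groups holds 3 biological replicates. The study shows Sanger sequencing of a deletion in the first exon of PARP3, which encodes an ADP-ribosyltransferase. It also shows immunoblots of PARP3-/- A549 cells in which PARP3 was expressed again. According to the methods, PARP3 was mutated with Cas9 and the nucleofected A549 cells were then cloned. Whether the RNA came from 1 such clone is not given in the sources used here, so genotype and clone cannot be told apart.

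PARP3 RNA was not lower in the libraries labelled PARP3-/-. Over both treatments it was higher there (log2 fold change 0.21, limma adjusted p = 0.0154), while with vehicle alone the difference did not pass (limma adjusted p = 0.136). It was at 4.41 ± 0.447 FPKM with vehicle and 4.58 ± 0.245 FPKM with pyridostatin in these libraries, against 3.73 ± 0.293 FPKM and 3.79 ± 0.243 FPKM in wild type (SD, n = 3 each). An FPKM value for the whole gene does not check a deletion within the first exon, so the groups are called by their labels. The epithelial genes KRT8 and KRT18 had group means of 2370 to 3180 FPKM, CD3E (T cells) was listed at 0 in all 12 libraries, and PTPRC (leukocytes) and PECAM1 (endothelium) did not exceed 0.0346 FPKM in any. EPCAM and CDH1, also epithelial, were lower in the libraries labelled PARP3-/- (with vehicle 1.16 against 2.12 FPKM and 10.2 against 14 FPKM, and over both treatments limma adjusted p = 6.96e-05 and 2.29e-05), while the collagen gene COL1A1 had 1.31 against 0.694 FPKM. Over both treatments KRT18 was also lower with that label (log2 fold change −0.24, limma adjusted p = 0.0128), and KRT8 did not pass (limma adjusted p = 0.138). Depth was estimated from low values at about 21600000 to 30600000 reads per library. Wild-type vehicle replicate 2 stood apart, with a median absolute deviation of 0.104 on the log2 scale from its group mean against 0.0318 to 0.064 in the other libraries. Results that rest on it are given with and without it, except for the comparison of profiles at the end.

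The 10 genes spanned a 16-fold range of levels. FANCI was the highest, with a mean of 42.8 FPKM over the 12 libraries, and FANCE the lowest, with 2.68 FPKM, against a median of 10.6 FPKM for the 11881 genes tested. Between them came FANCG at 21.7 FPKM, FANCL at 14.5 FPKM, FANCA at 14.4 FPKM, FANCD2 at 10.8 FPKM, FANCC at 6.13 FPKM, FANCF at 4.45 FPKM, FANCB at 3.24 FPKM and FANCM at 2.9 FPKM. FPKM is scaled to transcript length, which allows levels of different genes to be set side by side. Some of the reads could belong to other genes, since the strand setting of the counting is not known and FANCL overlaps VRK2 (20.6 FPKM), FANCI overlaps POLG (19.1 FPKM) and FANCA overlaps ZNF276 (6.35 FPKM), and since FANCD2 has pseudogenes. FANCC overlaps AOPEP, for which no level was found under that name. How many reads were shared was not tested, so the order of the levels is approximate for these genes. In the wild-type vehicle libraries, 3 neighbours in this order overlapped, FANCL with FANCA, FANCB with FANCM and FANCM with FANCE, and the others did not. Within the substrate pair, FANCI was at 40.9 to 46.4 FPKM and FANCD2 was at 10.6 to 11.9 FPKM in wild-type vehicle libraries. The low members rest on few reads. FANCE had approximately 130 to 230 reads per library and a counting error of about 7.6%, FANCB about 210 to 310 reads (6.4%), and FANCI about 4550 to 6080 reads (1.4%).

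**Figure D1:**
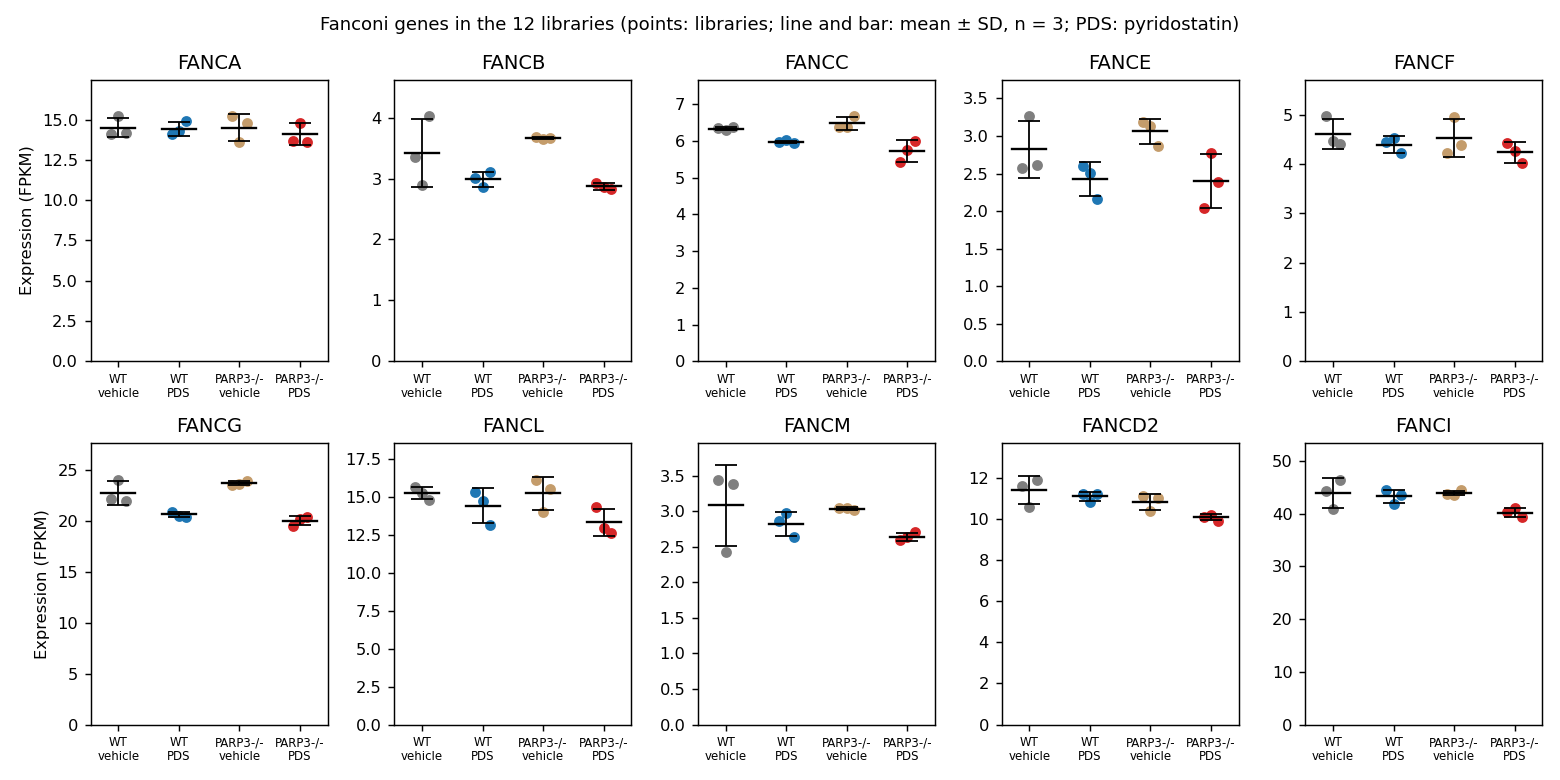
Level of each of the 10 Fanconi genes (vertical axis, FPKM from 0) in the 4 groups (horizontal axis); points are libraries, and lines with bars are the mean ± SD of 3 libraries. FANCG and FANCC lie lower in every pyridostatin library than in every vehicle library, whereas the groups of FANCA and FANCF overlap.

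With pyridostatin, FANCG, FANCB and FANCC RNA fell over both genotypes, and no member rose. On the scale of FPKM + 1, FANCG fell by 11.8%, FANCB fell by 13.3% and FANCC fell by 7.47%. The other 7 genes did not pass the test, and no member came near a log2 fold change of 1 in either direction. The starts of the 3 genes that fell are shown here, as the 250 bases before an annotated start in RefSeq on GRCh38.p14 (for FANCC, which has 2 windows in the promoter table, the one at the outer end of the gene), read 5′ to 3′ on the strand of the gene, which is the minus strand for all 3. They lie at chr9:35079943-35080192 (FANCG), chr9:95317710-95317959 (FANCC) and chrX:14873070-14873319 (FANCB). Capitals mark matches to letters bound by E2F factors, regulators of S phase genes (TTCCCGC or else TTCGCGC or else TTGCCGC or else TTGGCGC on either strand). In FANCC they also mark a quadruplex pattern of 4 runs of at least 3 G with gaps of 1 to 7 bases on either strand.
FANCG: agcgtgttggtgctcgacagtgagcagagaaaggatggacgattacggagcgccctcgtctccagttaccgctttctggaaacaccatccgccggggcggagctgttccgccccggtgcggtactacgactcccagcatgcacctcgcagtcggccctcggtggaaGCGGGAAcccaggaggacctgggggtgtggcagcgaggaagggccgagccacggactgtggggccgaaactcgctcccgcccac
FANCC: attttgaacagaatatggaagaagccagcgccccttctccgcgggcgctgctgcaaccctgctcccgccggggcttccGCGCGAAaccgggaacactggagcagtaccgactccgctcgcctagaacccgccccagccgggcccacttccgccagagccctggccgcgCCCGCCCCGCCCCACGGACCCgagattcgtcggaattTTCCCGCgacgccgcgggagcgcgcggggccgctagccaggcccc
FANCB: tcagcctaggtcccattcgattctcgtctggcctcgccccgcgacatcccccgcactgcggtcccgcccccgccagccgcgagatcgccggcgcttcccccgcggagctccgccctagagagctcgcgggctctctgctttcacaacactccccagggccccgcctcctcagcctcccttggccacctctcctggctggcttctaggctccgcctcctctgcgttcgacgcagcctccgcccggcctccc
Counting back from −1 at the base before the start, the E2F letters lie at −84 to −78 in FANCG, as GCGGGAA, and in FANCC at −172 to −166, as GCGCGAA, and at −45 to −39, as TTCCCGC. The quadruplex pattern of this FANCC window spans −82 to −62, on the opposite strand. The other FANCC window, at chr9:95317205-95317504, holds E2F letters at −115 to −109 and a quadruplex pattern on the strand of the gene at −31 to −2, counted from its own start. FANCB has no match to either. Over windows of 250 bases before to 50 bases after the start, E2F letters occurred in 8 of the 10 member windows (those of FANCA, FANCC, FANCD2, FANCE, FANCF, FANCG and FANCL) and in 13.0% of all 35116 windows. The quadruplex pattern occurred in 2 of the 10 member windows, both of FANCC, and in 25.0% of all windows. The 10 windows belong to 9 members. E2F letters thus occurred in members that passed (FANCG and FANCC) and in members that did not (FANCA, FANCD2, FANCE, FANCF and FANCL). They were absent from FANCB, which passed, and from FANCM, which did not. The share over all windows was not matched for G and C content. These matches are letters in a window, and binding or folding was not measured.

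FANCG is an adaptor subunit that holds FANCA in the core complex. In wild type it was at 22.1, 24 and 21.9 FPKM with vehicle and at 20.8, 20.5 and 20.4 FPKM with pyridostatin. The libraries labelled PARP3-/- had 23.5, 23.6 and 23.9 FPKM with vehicle and 19.5, 20.2 and 20.4 FPKM with pyridostatin. All 6 pyridostatin libraries thus lay below all 6 vehicle libraries. The log2 fold change in limma was −0.23 in the libraries labelled PARP3-/- (standard error 0.0386, adjusted p = 0.00722) and −0.13 in wild type (standard error 0.0386, adjusted p = 0.0848). Over both genotypes it was −0.18 (standard error 0.0273, limma adjusted p = 0.00196). This mean shares all its libraries with the separate contrasts and is not independent of them. Without wild-type vehicle replicate 2, the log2 fold change of FANCG was −0.09 in wild type (limma adjusted p = 0.0841) and −0.16 over both genotypes (limma adjusted p = 0.000455). FANCA, its partner, had group means between 14.1 and 14.5 FPKM that overlapped in every comparison, and a log2 fold change over both genotypes of −0.02 with a 95% interval of −0.10 to 0.06.

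FANCB forms the catalytic module with FANCL. FANCB had 3.36, 2.89 and 4.02 FPKM with vehicle in wild type and 3.01, 2.86 and 3.1 FPKM with pyridostatin, and these ranges overlapped. Those labelled PARP3-/- had 3.68, 3.65 and 3.67 FPKM with vehicle and 2.93, 2.86 and 2.83 FPKM with pyridostatin, without overlap. The log2 fold change was −0.27 in the libraries labelled PARP3-/- (adjusted p by limma = 0.071), −0.14 in wild type (limma adjusted p = 0.332) and −0.21 over both (standard error 0.0544, limma adjusted p = 0.03). The call over both genotypes was lost in 9 of 18 other settings, with adjusted p between 0.00251 and 0.0686. The wild-type value was −0.23 without wild-type vehicle replicate 2 and −0.05 without replicate 3, and passed in neither. FANCL was at 15.2 ± 0.395 FPKM with vehicle and 14.4 ± 1.14 FPKM with pyridostatin in wild type, and at 15.2 ± 1.08 and 13.3 ± 0.901 FPKM in the libraries labelled PARP3-/- (SD, n = 3 each). The FANCL groups overlapped in both genotypes, and its log2 fold change over both was −0.13 (limma adjusted p = 0.102).

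FANCC, FANCE and FANCF make up the module that contacts the substrate pair. FANCC was at 6.36, 6.3 and 6.38 FPKM with vehicle and at 5.98, 6.02 and 5.95 FPKM with pyridostatin in wild type. In the libraries labelled PARP3-/- it was at 6.38, 6.38 and 6.67 FPKM with vehicle and at 5.43, 5.76 and 6.01 FPKM with pyridostatin. Here too all 6 pyridostatin libraries lay below all 6 vehicle libraries. The log2 fold change of FANCC was −0.11 over both genotypes (standard error 0.0283, limma adjusted p = 0.0248), −0.15 in the libraries labelled PARP3-/- (adjusted p by limma = 0.0542) and −0.07 in wild type (limma adjusted p = 0.343). The call of FANCC over both genotypes was lost in 5 of 19 other settings, with adjusted p between 0.0069 and 0.0649. FANCE had as large a log2 fold change over both genotypes as FANCB, −0.21, with a standard error of 0.0659 and a limma adjusted p of 0.0619. FANCE had 2.58, 3.26 and 2.61 FPKM with vehicle and 2.6, 2.51 and 2.16 FPKM with pyridostatin in wild type, which overlap, and the wild-type log2 fold change of −0.15 was −0.07 without vehicle replicate 2. Among the libraries labelled PARP3-/-, FANCE had 3.18, 3.13 and 2.87 FPKM with vehicle and 2.04, 2.77 and 2.39 FPKM with pyridostatin, which do not. FANCF had group means of 4.24 to 4.62 FPKM, overlapped in both genotypes and had a log2 fold change over both of −0.07 (limma adjusted p = 0.355).

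FANCM is the DNA translocase that anchors the complex, and its value in wild type depended on each vehicle replicate. Its wild-type levels were 3.44, 2.43 and 3.38 FPKM with vehicle and 2.86, 2.98 and 2.64 FPKM with pyridostatin, so that replicate 2 alone lay below the treated libraries. In the libraries labelled PARP3-/- FANCM had 3.04, 3.05 and 3.01 FPKM with vehicle and 2.59, 2.64 and 2.7 FPKM with pyridostatin, without overlap. With all libraries the log2 fold change was −0.09 in wild type (limma adjusted p = 0.632) and −0.15 in the libraries labelled PARP3-/- (adjusted p by limma = 0.405). Without replicate 2 of the wild-type vehicle libraries, it was −0.21 in wild type (limma adjusted p = 0.0317), whereas it was −0.02 without replicate 1 (limma adjusted p = 0.914) and −0.03 without replicate 3 (limma adjusted p = 0.873). The same omission of replicate 2 left it at −0.15 in the libraries labelled PARP3-/- (adjusted p by limma = 0.0449).

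For the substrate pair, the treatments overlapped in wild type. FANCI had 44.2, 40.9 and 46.4 FPKM with vehicle and 44.4, 41.9 and 43.6 FPKM with pyridostatin, and FANCD2 had 11.6, 10.6 and 11.9 FPKM and then 11.2, 10.8 and 11.2 FPKM. The log2 fold changes were −0.02 (95% interval −0.12 to 0.08) for FANCI and −0.04 (−0.13 to 0.06) for FANCD2. Without vehicle replicate 2 they were −0.06 for FANCI and −0.08 for FANCD2, and without vehicle replicate 3 they were 0.03 and −0.01. With the label PARP3-/-, FANCI had 43.8, 43.5 and 44.4 FPKM with vehicle and 40.3, 41 and 39.3 FPKM with pyridostatin. FANCD2 had 11.1, 10.4 and 11 FPKM with vehicle and 10.1, 10.2 and 9.89 FPKM with pyridostatin there. Neither gene overlapped between treatments in these libraries, yet neither passed the test, with log2 fold changes of −0.13 for FANCI (limma adjusted p = 0.145) and −0.10 for FANCD2 (limma adjusted p = 0.261).

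**Figure D2:**
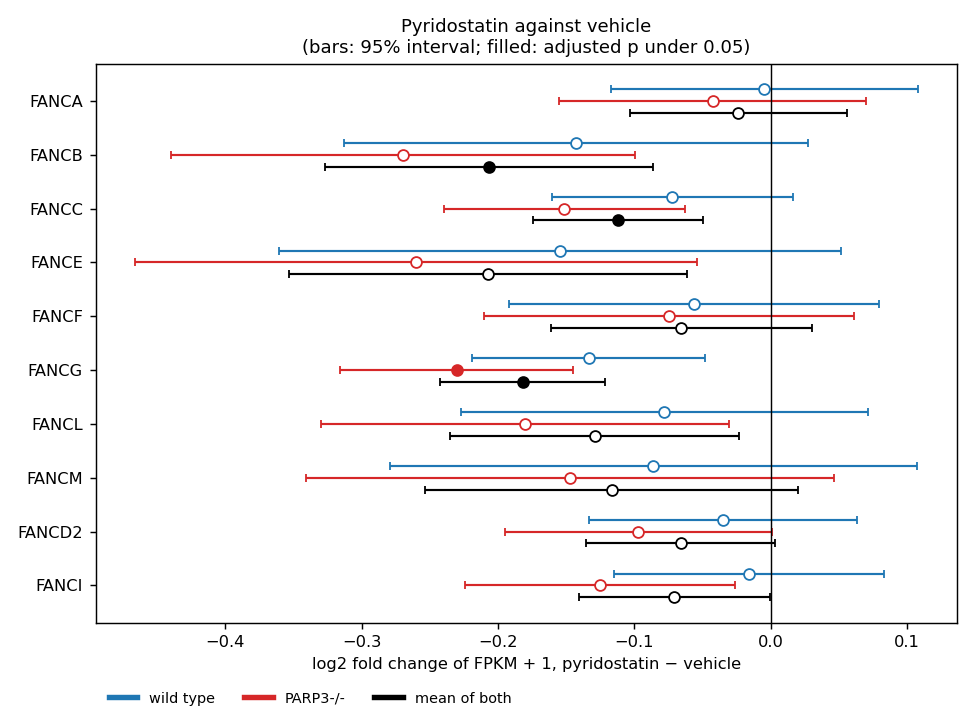
Log2 fold change of FPKM + 1 with pyridostatin against vehicle (horizontal axis) for each Fanconi gene (vertical axis), in wild type, in the libraries labelled PARP3-/- and as the mean of both; bars are 95% intervals and filled points have a limma adjusted p under 0.05. FANCG is filled in the libraries labelled PARP3-/- at −0.23 and, with FANCB and FANCC, in the mean of both.

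Counted over the group, 0 of 10 members passed with pyridostatin in wild type, where 4.17% of all genes did, and 1 of 10 had an unadjusted p under 0.05. In the libraries labelled PARP3-/- 1 of 10 passed, FANCG, where 5.56% of all genes passed and 2.52% passed and were lower. Over both genotypes 3 of 10 passed, all lower, where 13.9% of all genes passed and 6.24% passed and were lower. The log2 fold change was below 0 in both genotypes for 10 of 10 members and for 34% of all genes, although the sign of FANCI in wild type turned to 0.01 after quantile normalization, and those of FANCI and FANCA in wild type also turned without certain single libraries. The median over the members was −0.08 in wild type, −0.15 in the libraries labelled PARP3-/- and −0.11 over both, while the median of all genes was 0.00 in each. All pyridostatin libraries lay below all vehicle libraries for 2 members in wild type (9.71% of all genes), for 7 in the libraries labelled PARP3-/- (15.7%) and for 2 over all 12 libraries (2.46%).
Without wild-type vehicle replicate 2, the members called were 1 in wild type (FANCM), 5 in the libraries labelled PARP3-/- (FANCB, FANCC, FANCG, FANCM and FANCI) and 6 over both genotypes. In wild type this omission also raised the share of all genes called above the 4.17% of the full fit. The wild-type call thus does not set the members apart from other genes. Without wild-type vehicle replicate 3, FANCB and FANCG were called in the libraries labelled PARP3-/-. Without replicate 3 of the vehicle libraries labelled PARP3-/-, or without wild-type pyridostatin replicate 1, FANCG alone was called over both genotypes.

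The response to pyridostatin was then compared between the genotypes. The log2 fold change was lower in the libraries labelled PARP3-/- than in wild type for all 10 members, by 0.02 to 0.13. It was also lower there for 6326 of all 11881 genes. Of the members, 0 of 10 passed the interaction test in limma, 0 of 10 had an unadjusted p under 0.05, and the adjusted p was 0.999 for each. This direction turned for FANCM without wild-type vehicle replicate 2 (−0.15 against −0.21). It turned for FANCF without wild-type vehicle replicate 3 (−0.07 against −0.08), and, among the libraries labelled PARP3-/-, without vehicle replicate 2 (−0.02 against −0.06) or pyridostatin replicate 3 (−0.04 against −0.06). Among all genes 0% passed, and 521 had an unadjusted p under 0.05. The 95% intervals of the difference were −0.22 to 0.02 for FANCG, −0.37 to 0.11 for FANCB and −0.25 to 0.03 for FANCI, and all of them include 0. That FANCG was called in the libraries labelled PARP3-/- and not in wild type does not show a difference between genotypes.

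Between genotypes no member passed. With vehicle, log2 fold changes of the libraries labelled PARP3-/- against wild type ran from −0.07 for FANCD2 to 0.09 for FANCE, 0 of 10 passed in limma where 9.41% of all genes did, and 0 of 10 had an unadjusted p under 0.05. With pyridostatin all 10 log2 fold changes were below 0, as were 46.9% of those of all genes, and 0 of 10 passed where 10.9% of all genes did. FANCD2 and FANCI had the largest values there, −0.13 (limma adjusted p = 0.101) and −0.10 (limma adjusted p = 0.183), and both had an unadjusted p under 0.05. FANCD2, FANCI and FANCG lay lower in every pyridostatin library labelled PARP3-/- than in every wild-type one, as did 15.9% of all genes. For FANCG the gap is smaller than the digits shown, as the nearest libraries of both genotypes were at 20.4 FPKM. Its log2 fold change there was −0.04 (limma adjusted p = 0.633). Over both treatments 0 of 10 passed, where 19.1% of all genes did, and FANCD2 was at −0.10 (standard error 0.0314, limma adjusted p = 0.0554).
FANCD2 was near the threshold in these comparisons. It passed with pyridostatin after quantile normalization (−0.16) or centring the libraries on one median (−0.15), and without wild-type vehicle replicate 2 both FANCD2 (limma adjusted p = 0.0206) and FANCI (limma adjusted p = 0.0383) passed there. The same omission gave 1 call with vehicle (FANCG) and 3 over both treatments (FANCM, FANCD2 and FANCI). It also raised the share of all genes called above the 9.41% with vehicle and the 10.9% with pyridostatin of the full fit. The member calls with vehicle and with pyridostatin thus do not set these genes apart from other genes.

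**Figure D3:**
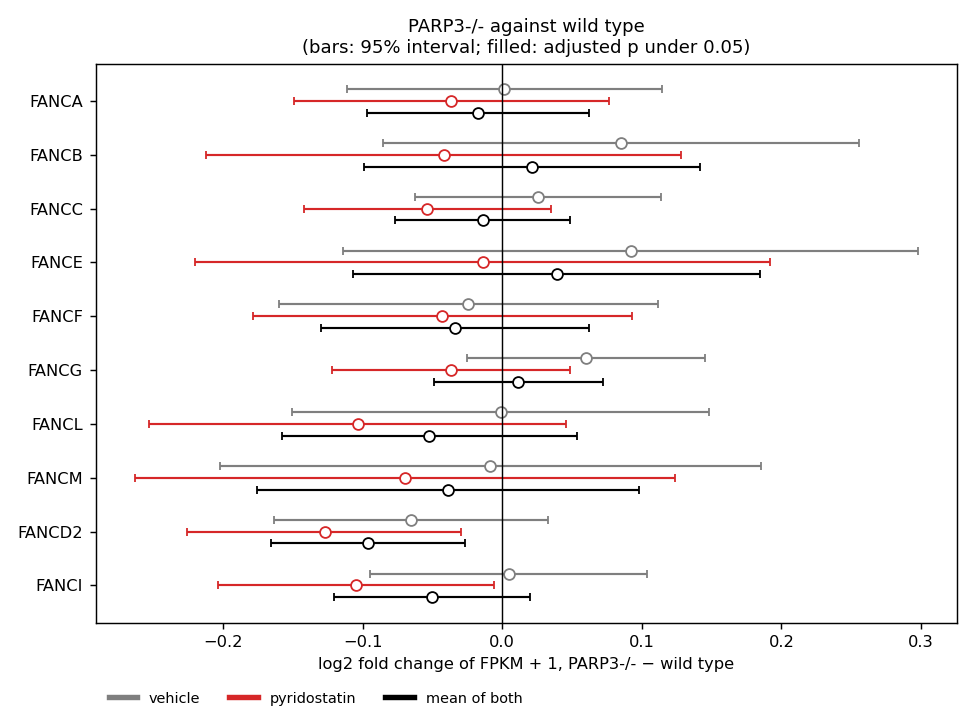
Log2 fold change of FPKM + 1 in the libraries labelled PARP3-/- against wild type (horizontal axis) for each Fanconi gene (vertical axis), with vehicle, with pyridostatin and as the mean of both; bars are 95% intervals and no point has a limma adjusted p under 0.05. The intervals of FANCD2 and FANCI with pyridostatin lie below 0.

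The partners of these genes were taken from a list of 20 further Fanconi pathway genes, chosen with earlier results of these data known. With pyridostatin over both genotypes, 5 of the 20 fell and 0 rose, with a median log2 fold change of −0.08. Of all genes, 13.9% passed and 6.24% passed and were lower. UBE2T, the ubiquitin-conjugating enzyme that works with FANCL, was at 88.1 ± 7.55 FPKM with vehicle and 73.8 ± 2.67 FPKM with pyridostatin in wild type, and at 80.1 ± 0.555 and 65.8 ± 2.79 FPKM in the libraries labelled PARP3-/- (SD, n = 3 each). Its log2 fold change was −0.26 over both genotypes (limma adjusted p = 0.00208), and UBE2T passed in each genotype alone. In wild type it was the 1 gene of the list called, and 9 of the 12 fits that each left out 1 library called 0 genes of the list, as did 4 of the 12 in the libraries labelled PARP3-/-, whereas over both genotypes these fits called 5 to 9. USP1, which removes ubiquitin from FANCD2, fell by 0.18 on the log2 scale (limma adjusted p = 0.0154). Also lower were CENPS, a DNA-binding partner of FANCM, at −0.22 and the repair factor BRCA1 at −0.20 (limma adjusted p = 0.0117 and 0.00477). Between genotypes over both treatments, 2 of the 20 passed (10%), where 19.1% of all genes did. UBE2T was lower (−0.15, limma adjusted p = 0.0253) and FAAP100, the third subunit of the FANCB and FANCL module, was higher (0.16, limma adjusted p = 0.0493) in the libraries labelled PARP3-/-.

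Many cell cycle genes also fell with pyridostatin, where 6.24% of all genes passed and were lower over both genotypes. The S phase and G2/M lists were chosen with earlier results of these data known. Their counts are therefore a description of the genes listed and not a test against all genes. Over both genotypes, 12 of 14 S phase genes fell with pyridostatin and 0 rose, with a median log2 fold change of −0.28, among them MCM6 (−0.36) and MCM3 (−0.31), subunits of the replicative helicase, and CDC6 (−0.27), which loads it. PCNA (0.06) and TYMS (0.04) did not pass. In fits without 1 library this count of S phase genes was 12 in each. Of 12 G2/M genes 7 fell and 0 rose (6 to 9 fell in fits without 1 library), with a median of −0.15, among them AURKA (−0.16), CDC20 (−0.28) and CCNB2 (−0.21). CDKN1A, which encodes the cell cycle inhibitor p21, was at 87 ± 7.27 FPKM with vehicle and 193 ± 3.4 FPKM with pyridostatin in wild type, and at 100 ± 3.9 and 208 ± 8.67 FPKM in the libraries labelled PARP3-/- (SD, n = 3 each), a log2 fold change of 1.10 over both (limma adjusted p = 5.37e-07). In bulk RNA, fewer cells in S phase and less RNA of these genes per cell cannot be told apart, and the part of the cell cycle in the members' levels was not tested.

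**Figure D4:**
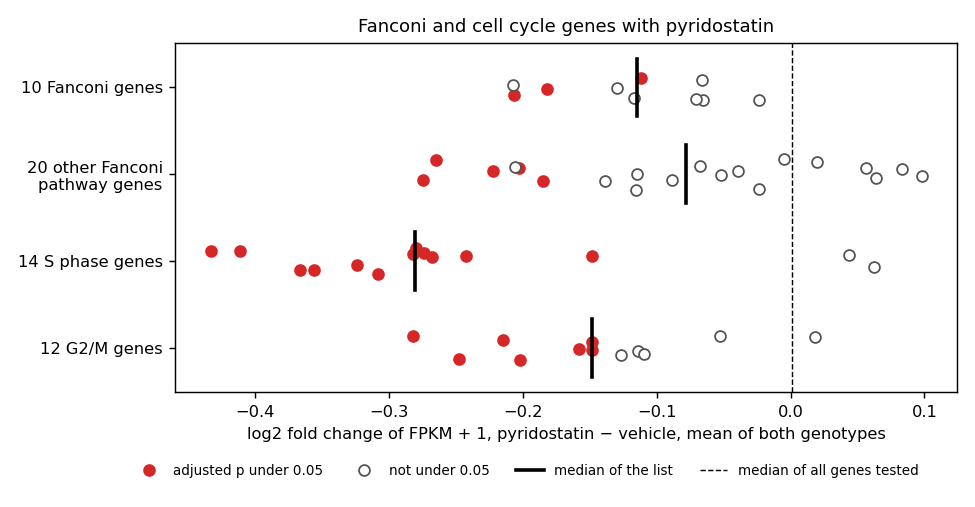
Log2 fold change of FPKM + 1 with pyridostatin, as the mean of both genotypes (horizontal axis), for 4 groups of genes (vertical axis); points are genes, filled where the limma adjusted p is under 0.05, thick bars are medians and the dashed line is the median of all genes tested. The 10 Fanconi genes have a median of −0.11, between 0.00 for all genes and −0.28 for the S phase genes. The lists were chosen with earlier results of these data known.

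Which genes had profiles most like those of the substrate pair was described with the mean absolute difference between profiles over the 12 libraries, each centred and divided by its SD, so that 0 is an identical shape. Of 11880 other genes, FANCI was the 8th nearest to FANCD2 and FANCD2 the 7th nearest to FANCI, at a mean difference of 0.319 SD. The 5 nearest to FANCD2 were SGOL1 (0.249 SD), LRRCC1, ETF1, DDX18 and LINC00473. Those nearest to FANCI were CEBPZ (0.277 SD), DIS3L, NUP107, LAMB1 and KIAA1524. The core subunits ran from FANCM at rank 454 to FANCE at rank 5862 in the order for FANCD2, and from FANCB at rank 137 and FANCM at rank 229 to FANCE at rank 4222 in the order for FANCI. For FANCG, chosen after its values were seen, the nearest were KHK (0.183 SD), LIG1, CARS, C2orf74 and FEN1, with FANCE at rank 86 and FANCC at rank 127 and with FANCD2 at rank 4625. All profiles share the same libraries. These orders were not repeated without wild-type vehicle replicate 2. Among the wild-type vehicle libraries, FANCI (40.9 FPKM) and FANCD2 (10.6 FPKM) were lowest in replicate 2, and FANCG (24 FPKM) was highest there. How far the likeness rests on that library was not tested.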

How the data were processed

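RNA from 12 cultures (4 groups of 3 biological replicates) was made into stranded mRNA libraries and sequenced as single-end reads of 75 bases. The authors deposited FPKM values, 1 column per library, in a table named after cufflinks. The submitters' processing notes name bcl2fastq 2.16, STAR 2.5 and Cufflinks, and the builds hg19 and mm9 without a role. The annotation and the strand setting of the counting are not given in the sources used here, and FANCA, FANCB, FANCC, FANCL, FANCD2 and FANCI overlap other coding genes on GRCh38.p14. The study tested read counts, which were not used here.

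Groups and replicate numbers came from the sample titles. limma 3.58.1 in R 4.3.3 fitted the 4 groups in one model (eBayes with trend, no block) to log2(FPKM + 1), a scale that understates the change of low genes, over the 11881 genes that averaged 1 FPKM or more. P-values were adjusted by Benjamini and Hochberg over these genes, and a gene passed at an adjusted p under 0.05. The 7 contrasts share libraries. The model was tested on simulated data. The members and gene lists were chosen with earlier results of these data known, and the rule for names took all members, the called genes of the pathway list and up to 3 genes of each cell cycle list. Not every gene named by this rule is reported here. Same-numbered libraries deviated from their group means with correlations of −0.12 to 0.216, not all over 0.1, so the numbers were not taken as pairs. Alternatives were a pseudocount of 0.1, no filter or a minimum mean of 5 FPKM, quantile normalization, a common median, no trend, the replicate block, only the libraries of a comparison, and 12 fits each without 1 library.

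Depth was estimated from 202 genes whose low values are whole multiples of 1 read, with GENCODE release 29 transcript lengths. The estimate is approximate, as 25.7% to 31.6% of the low values lay at the common ratio. Counting errors cover counting only. Python 3.11.15, numpy 2.4.6, pandas 2.3.3 and matplotlib 3.10.9 were used for depth, promoters and figures.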

Additional observations from a re-analysis of the deposited data

How the results depend on the processing

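The median log2 fold change of the members kept its sign with pyridostatin in all 19 or 20 alternatives (−0.14 to −0.09 over both genotypes). FANCG was called in every one of them over both genotypes and in the libraries labelled PARP3-/-. Counts of called members were less stable. After quantile normalization or a shift to a common median, 3 members in place of 1 were called with pyridostatin in the libraries labelled PARP3-/-, and 1 in place of 0 (FANCD2) between genotypes with pyridostatin and over both treatments. In the libraries labelled PARP3-/- 2 members were called without the trend and 3 with only the libraries of that comparison. With a mean of at least 5 FPKM, 1 member was called in place of 3 over both genotypes, a setting in which FANCB was not tested. The replicate block called 1 member (FANCD2) between genotypes over both treatments, and 4 in place of 3 with pyridostatin over both genotypes, and the members' count changed in no other contrast. When 1 library was left out, counts ran from 1 to 6 over both genotypes, from 1 to 5 in the libraries labelled PARP3-/-, from 0 to 1 in wild type, from 0 to 1 between genotypes with vehicle, from 0 to 2 with pyridostatin and from 0 to 3 over both treatments. The highest of each came without wild-type vehicle replicate 2. More of all genes were also called in that fit, in wild type and between genotypes with vehicle or with pyridostatin. The interaction had 0 in each alternative. In wild type, the log2 fold change of FANCI turned to 0.0098 after quantile normalization and ran from −0.0644 to 0.0252 when 1 library was left out, and that of FANCA from −0.0277 to 0.0264. It turned above 0 without wild-type vehicle replicate 3 or pyridostatin replicate 2 for FANCI, and without wild-type vehicle replicate 2 or pyridostatin replicate 1 or 2 for FANCA. The causes were not tested.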
